A study of Mus musculus with 4 samples.

Results

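Mt1 and Mt2 encode the metallothioneins that most mouse tissues make, and they are 2 of the 8251 genes that the array reads with a single-gene probe set. The members were all probe sets annotated to either gene, which gave 2 of 12422 non-control probe sets, 1 per gene, and neither is annotated to a further gene. The genes were selected on these same log2 values, for differing between the mice in a like way, so their levels are a description, with no test. The samples were seminal vesicles, the male accessory glands that secrete much of the seminal fluid, from 4 mice of strain C57Bl/6J and genotype Nkx3.1 +/+, aged 15 months, with 1 Affymetrix Mu74AV2 array per mouse. All 4 arrays belong to 1 group that is wild-type for Nkx3.1 and has no stated treatment, and there is no second genotype, age or tissue to set them against. Mice are numbered 1 to 4 in series order, which only names them. Expression is on a log2 scale for each probe set, where a difference of 1 is a 2-fold difference.

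Metallothioneins are small cytosolic proteins very rich in cysteine that bind zinc and copper and can take up cadmium. Their genes are switched on by zinc through the metal-sensing transcription factor MTF-1, which binds short metal response elements in their promoters, and also by glucocorticoids, interleukin 6 signalling through STAT3, oxidants, hypoxia and fasting. Mt1 and Mt2 lie side by side on mouse chromosome 8 and are commonly induced together, whereas their neighbours Mt3 and Mt4 are best known from brain and from stratified epithelium.

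The sequences before the start sites of Mt1, Mt2 and Mt3 are shown because they belong to 2 genes whose values moved alike between the mice and to a neighbour whose values did not. They are the 250 bases before the RefSeq start on assembly GRCm38.p6, plus strand, at chr8:94178839-94179088 for Mt1, chr8:94172368-94172617 for Mt2 and chr8:94152357-94152606 for Mt3. Capitals, of which Mt3 has none, mark each match to the core of the metal response element, searched on both strands in the forms TGCACNC and TGCGCNC.
Mt1: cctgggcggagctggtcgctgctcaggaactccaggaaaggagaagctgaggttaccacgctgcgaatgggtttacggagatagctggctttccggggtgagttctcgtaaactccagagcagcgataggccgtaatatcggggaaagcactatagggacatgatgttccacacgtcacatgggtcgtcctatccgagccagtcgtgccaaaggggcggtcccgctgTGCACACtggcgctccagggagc
Mt2: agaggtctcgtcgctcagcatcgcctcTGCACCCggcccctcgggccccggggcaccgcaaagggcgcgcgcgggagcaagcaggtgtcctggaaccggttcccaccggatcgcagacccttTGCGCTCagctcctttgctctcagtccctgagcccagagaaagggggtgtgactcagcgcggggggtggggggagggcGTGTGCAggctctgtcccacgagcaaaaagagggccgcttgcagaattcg
Mt3: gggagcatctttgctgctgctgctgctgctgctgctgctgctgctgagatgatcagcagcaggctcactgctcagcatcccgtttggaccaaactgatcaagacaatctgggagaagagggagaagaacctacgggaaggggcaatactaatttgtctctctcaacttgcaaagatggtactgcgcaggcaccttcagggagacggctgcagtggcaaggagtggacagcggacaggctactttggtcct

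Over the full 300 bases, which add the 50 bases after the start, the Mt2 window held 4 core matches and the Mt1 window 3. Of these, 3 in Mt2 and 1 in Mt1 lay before the RefSeq start, and the other matches lay after it. The first base of the Mt1 match TGCACAC lay 23 bases before that start. Before and after refer to this 1 annotated start per gene, which was not checked against other evidence. Matches outside the window were not counted, so the counts do not compare the whole promoters. Mt3 had 1 match, after its start, and Mt4 had 1, before its start. Of 32851 RefSeq promoter windows of this length, 25.7% held at least 1 match, 1.97% at least 3 and 0.517% at least 4. The antioxidant response element core TGACNNNGC was present once in Mt2, as TGACTCAGC with its first base 79 bases before the start, and was not in the Mt1 window. It occurred in 12.4% of all windows. No matches of the 3 motifs overlapped in the Mt1 and Mt2 windows. A match is a match of letters, and none says only that those letters are not in the window.

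The deposited values were alike in overall signal between arrays, which the normalization within RMA brings about, so this does not compare the RNA put in. Array medians lay between 4.95 and 4.98, and pairs of arrays correlated with r of 0.992 to 0.994 over the probe sets, which are not replicates. A probe set was taken as above the background range where it exceeded each array's median on all 4 arrays, which 5834 of 12422 probe sets, or 47.0%, did. A share of about this size follows from using the median. The limit is not a measured background, and passing it does not show that a gene is expressed. The seminal vesicle secretion genes Svs2 at 12.53 ± 0.10 and Svs4 at 12.99 ± 0.03 (SD, n = 4 mice) stood near the top of the scale. The labels give no litter, cage, time of collection or hybridisation batch.

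Mt1 was highest in mouse 3 and lowest in mouse 2. Its values were 7.62, 7.05, 8.17 and 7.52 in mice 1 to 4, with a mean of 7.59 ± 0.46 (SD, n = 4). The highest value exceeded the lowest by 1.12, or 2.17-fold. Without mouse 2 this span was 0.65, and without mouse 3 it was 0.57, so the span rests on both of these mice.

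Mt2 had the same order of mice. Its values were 7.75, 6.79, 7.97 and 7.11 in mice 1 to 4, with a mean of 7.41 ± 0.55 (SD, n = 4). Mouse 3 exceeded mouse 2 by 1.18, or 2.27-fold. Both probe sets were above the background range on every array, and their means exceeded those of 92.5% of probe sets for Mt1 and 91.0% for Mt2.

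There is 1 array per mouse, so a difference between mice includes the error of the array, and the 500 probe sets of nearest mean signal served as a yardstick. Mt1's SD was above that of 488 of its 500 probe sets of like signal, whose median SD was 0.12, and Mt2's was above 492 of 500. High ranks follow from how the genes were selected and support nothing about them. The step between neighbours in the order was not always large. Mouse 3 exceeded mouse 1 by 0.55 for Mt1, a larger difference than 490 of the 500 like probe sets had between the same arrays, but by 0.22 for Mt2, larger than 378 of 500. Mouse 1 exceeded mouse 4 by 0.64 for Mt2, larger than 488 of 500, but by 0.10 for Mt1, larger than 231 of 500, so Mt1 did not separate these mice beyond the usual spread. Mouse 4 exceeded mouse 2 by 0.47 for Mt1, larger than 475 of 500, and by 0.32 for Mt2, larger than 422 of 500. The members therefore shared their extremes, mouse 3 and mouse 2, and differed in how far apart they set mice 1 and 4.

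**Figure D1:**
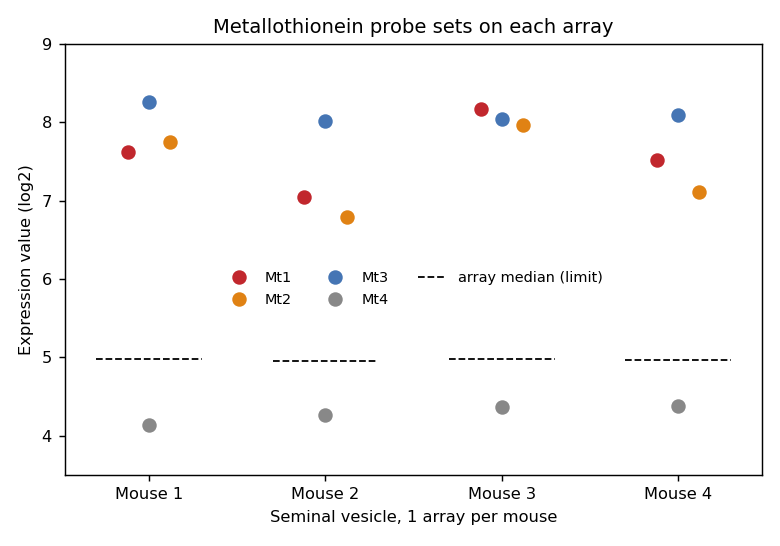
Log2 expression value (vertical axis) of the Mt1, Mt2, Mt3 and Mt4 probe sets in each of the 4 mice (horizontal axis), 1 point per array, with each array's median over all probe sets as a dashed line. Mt1 and Mt2 peak in mouse 3 and are lowest in mouse 2, Mt3 stays between 8.02 and 8.26, and Mt4 lies under the array median in every mouse; levels of different probe sets are not comparable with each other.

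The other metallothionein genes did not follow. Mt3, the growth inhibitory form best known from neurons, had 8.26, 8.02, 8.04 and 8.10 in mice 1 to 4, with a mean of 8.10 ± 0.11 (SD, n = 4). It was above the background range on all 4 arrays, and its SD exceeded 43.8% of like probe sets. Mt4, the form of stratified epithelium, had 4.14, 4.27, 4.37 and 4.38 and was under the array median on every array. A difference between mice in Mt4 may not be detectable at this signal.

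**Figure D2:**
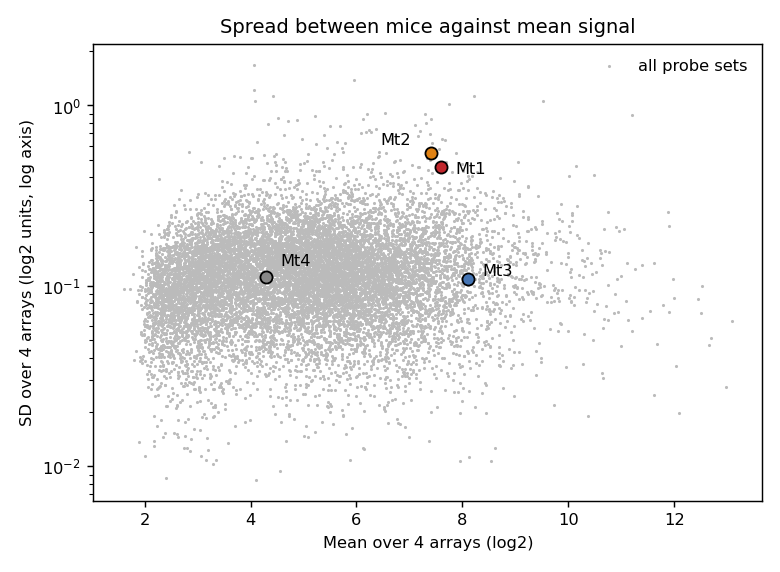
SD over the 4 arrays in log2 units (vertical log axis) against mean log2 value (horizontal axis), with 1 grey point for each of 12422 probe sets and the 4 metallothionein probe sets in colour. Mt1 (SD 0.46) and Mt2 (SD 0.55) lie above most probe sets of like signal, and Mt3 and Mt4 (SD 0.11 each) lie within the cloud.

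Of the genes around the cluster on chromosome 8, only 3 could be read above the range, and by their brightest probe sets 0 of these had both extremes of the members. In the RefSeq order the cluster runs Mt4, Mt3, Mt2, Mt1, and 6 of the 12 nearest protein-coding neighbours, 6 on each side, were measured. Herpud1, an endoplasmic reticulum stress gene beyond Mt1, had 8.76, 8.92, 9.14 and 8.93 in mice 1 to 4, and Gnao1, a G protein subunit gene beyond Mt4, had 6.70, 6.29, 6.56 and 6.57. Herpud1 shared the highest mouse with the members but was lowest in mouse 1, and Gnao1 shared the lowest mouse but was highest in mouse 1. Of the 4 dimmer Gnao1 probe sets 2 had the members' extremes, with 4.64, 4.12, 4.66 and 4.27 under the limit (ratio 0.505) and 5.63, 5.60, 5.93 and 5.71 above the range (ratio 0.785). Psme3ip1 had 6.53, 6.89, 6.51 and 6.73, with its maximum in mouse 2 and minimum in mouse 3, the reverse of the members. Nup93, next to Mt1, Slc12a3 and Nudt21 had mean values of 3.06, 3.34 and 3.63 and were not above the range.

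To rank other probe sets by likeness, the deviations of Mt1 and Mt2 from their own 4-mouse means were averaged into a profile, which was 0.19, -0.58, 0.57 and -0.18 in mice 1 to 4. The distance of a probe set's own deviations from this profile was divided by the profile's length, so that a ratio of 0 means the same deviations in shape and size and a flat probe set has a ratio of 1. Mt1 and Mt2 each had a ratio of 0.229, while Mt3 had 0.964 and Mt4 1.01. The profile is the mean of Mt1 and Mt2, so their equal ratios follow from how it was built. Mt3 and Mt4 are not part of it, so their ratios are not on the same footing. Ratios to the mirrored profile, with all signs turned, were computed the same way. All of them describe 4 points per probe set and were not tested.

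Among genes that sense or move zinc 0 of 13 had a ratio under 0.5 to the profile or its mirror, a threshold that 0.194% and 0.57% of all genes passed, so a list of this size is near the background at 0. The same holds for the 0 counts of the lists that follow. Of the list of MTF-1 and the zinc transporters 13 of 25 genes were measured and 9 were above the range, with a median SD of 0.106 against 0.112 over all probe sets. Mtf1 itself had 5.87, 5.86, 5.88 and 5.89 in mice 1 to 4 (5.88 ± 0.01, SD, n = 4). Slc30a1, the zinc exporter that is a classic MTF-1 target, was under the limit at 2.54 ± 0.19 and was highest in mouse 1. Slc30a3, a vesicular zinc transporter, had 8.32, 8.09, 8.43 and 8.24. It was the only gene of this list with the highest value in mouse 3 and the lowest in mouse 2, against 11.6% of all genes. Its span was far smaller than the members' (SD 0.14). Slc30a4 was at 6.03 ± 0.07 (SD, n = 4).

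Of 10 measured copper genes 8 were above the range and 0 had a ratio under 0.5. The uptake transporter Slc31a1 was at 7.41 ± 0.12, the copper chaperone Atox1 at 8.34 ± 0.17 and the copper pump Atp7a at 6.79 ± 0.40 (SD, n = 4). Atp7a had 6.21 in mouse 1 against 6.84 to 7.12 in mice 2 to 4, a different order from Mt1 and Mt2. Of the 10 copper genes 2, Ccs and Commd1, had the members' extremes, against 11.6% of all genes. Ccs, the copper chaperone of superoxide dismutase, had 7.01, 6.80, 7.13 and 7.11 (ratio 0.791), and Commd1 was under the limit. Of 7 measured iron genes 3 were above the range, and the transferrin receptor Tfrc (8.01 ± 0.12), the iron importer Slc11a2 (7.63 ± 0.26) and ferritin heavy chain Fth1 (9.68 ± 0.14) all had a ratio to the profile of 0.977 or more.

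In the heat shock list 1 of 13 measured genes had a ratio under 0.5 to the profile, against 0.194% of all genes. Hsph1, which encodes an Hsp110 chaperone, had 6.05, 5.57, 6.42 and 5.81 in mice 1 to 4, a ratio of 0.283. The inducible Hsp70 genes did not share this: Hspa1a was at 5.56 ± 0.12 and highest in mouse 4, and Hspa1b was at 6.95 ± 0.09 (SD, n = 4) and highest in mouse 1. The cytosolic Hsp90 gene Hsp90aa1, named after its values were seen, had 8.46, 9.06, 8.90 and 8.51, with mouse 2 highest. Others leaned toward the profile without reaching 0.5. Of these, Hspd1 had 8.29, 8.22, 8.55 and 8.18 (ratio 0.736), and Bag3 had 6.16, 5.80, 6.05 and 5.83 (ratio 0.744). The mean deviation of the 10 heat shock genes above the range, Hsph1 included, was 0.01, -0.06, 0.12 and -0.07. It was highest in mouse 3 and lowest in mouse 4.

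**Figure D3:**
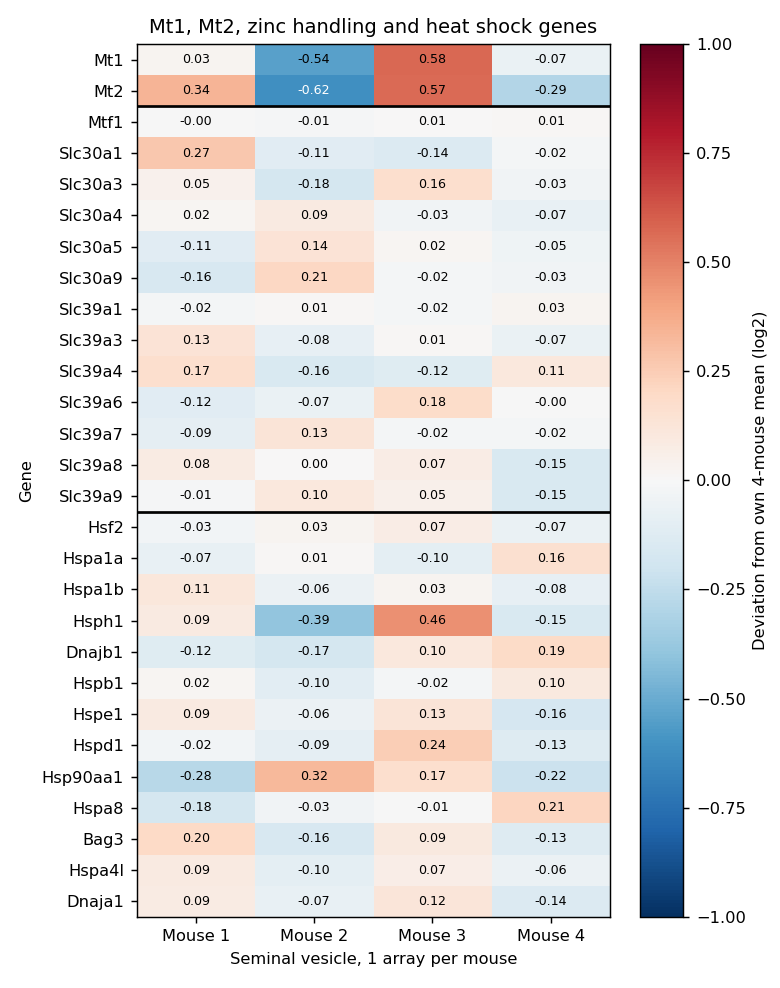
Deviation of each gene from its own 4-mouse mean in log2 units (colour and printed value) in each mouse (columns), for Mt1 and Mt2 (top), the 13 measured genes of the zinc list (middle) and the 13 of the heat shock list (bottom). Hsph1 (log2 values of 5.57 in mouse 2 and 6.42 in mouse 3) is the row nearest to Mt1 and Mt2, and Mtf1 and most zinc transporters are close to 0.

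In the hypoxia list 4 of 12 measured genes peaked in mouse 3 with their minimum in mouse 2, an order that 11.6% of all genes had. These were Hif1a, Vegfa, Ldha and Ddit4, with Vegfa under the limit. Hif1a, the oxygen-regulated transcription factor gene, had 8.19, 8.05, 8.62 and 8.24 in mice 1 to 4 (ratio 0.604), and Ldha, the glycolytic lactate dehydrogenase, had 7.22, 6.96, 7.52 and 6.96 (ratio 0.530). Ddit4, a stress-induced inhibitor of mTOR, was named after its values were seen and had 7.33, 7.09, 8.56 and 7.51, with mouse 3 standing above the rest. Slc2a1, the glucose transporter of the list, had 5.90, 6.41, 6.28 and 6.31 and did not share the order.

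Of 22 measured glucocorticoid genes, 0 had a ratio under 0.5 to the profile or its mirror. The receptor cochaperone gene Fkbp5 was at 8.05 ± 0.09, the anti-inflammatory gene Tsc22d3 was at 6.01 ± 0.15, and the kinase gene Sgk1 had 10.17, 10.39, 9.85 and 9.90 with mouse 2 highest and mouse 3 lowest. The glucocorticoid receptor gene Nr3c1 was under the limit at 2.77 ± 0.14. In the interleukin 6 list 0 of 15 genes had such a ratio, with Il6ra at 5.59 ± 0.16, Il6st at 6.44 ± 0.28 and Stat3 at 7.01 ± 0.05 (SD, n = 4). In that list 3 of 15 genes, Il6ra, Stat3 and Tnf, peaked in mouse 3 with their minimum in mouse 2, against 11.6% of all genes, with Tnf under the limit. Il6ra, the interleukin 6 receptor gene, had 5.55, 5.42, 5.80 and 5.60 in mice 1 to 4.

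The oxidative stress list had 17 measured genes, of which 4 (Keap1, Txnrd1, Txn1 and Cat) had the members' extremes, against 11.6% of all genes. Each of the 4 had an SD of 0.13 or less, and Keap1 was under the limit. Nfe2l2 was at 5.61 ± 0.09 and Hmox1, the haem oxygenase induced by many of the same agents as metallothionein, at 6.45 ± 0.06 (SD, n = 4). Gclc, the glutamate-cysteine ligase catalytic subunit, had 6.16, 6.63, 6.25 and 6.65, low where Mt2 was high, with a ratio to the mirrored profile of 0.648. Of 21 immediate early genes 0 had a ratio under 0.5; Fosb was at 5.63 ± 0.11, Fosl2 at 5.35 ± 0.11 and Jun at 5.26 ± 0.06. Of 10 genes of the fasting list 0 did; Angptl4 was at 6.79 ± 0.02, Cpt1a at 7.59 ± 0.08 and Irs2 at 6.35 ± 0.21 (SD, n = 4).

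In the clock list the reverse order was common. Of 15 measured clock genes 7 peaked in mouse 2 with their minimum in mouse 3, the reverse of Mt1 and Mt2, where 7.21% of all genes had this order, and 0 had the members' own extremes, which 11.6% of all genes had. The 7 were Cry2, Nr1d1, Nr1d2, Dbp, Tef, Rora and Bhlhe40, which act as repressors, activators or outputs of the clock. Of these, Dbp, Rora and Bhlhe40 were under the limit, and Tef, Rora and Bhlhe40 had small deviations, with mirror ratios of 0.816, 0.914 and 0.801. Nr1d2, which encodes the nuclear receptor REV-ERB beta, had 6.09, 6.99, 5.88 and 6.28 in mice 1 to 4 (mirror ratio 0.323). Dbp, a clock-driven output transcription factor, had 4.19, 4.58, 3.71 and 4.48 (mirror ratio 0.339) but lay under the limit on every array.

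Also among the 7, Nr1d1 had 5.55, 6.05, 5.53 and 5.87 (mirror ratio 0.530) and Cry2 5.12, 5.50, 5.12 and 5.36 (mirror ratio 0.651). In both, mice 1 and 3 were almost level. The remaining clock genes did not have this order. Arntl, the BMAL1 gene of the positive arm, was lowest in mouse 2, at 4.19, 3.71, 4.16 and 3.94, and was also under the limit. Per1 had 5.32, 5.35, 5.47 and 5.35, Per2 was at 2.37 ± 0.05 and under the limit, and Cry1 was at 5.64 ± 0.17 (SD, n = 4). Per1, Cry1 and Cry2 were named for their position in this list, and the other clock genes after their values were seen.

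**Figure D4:**
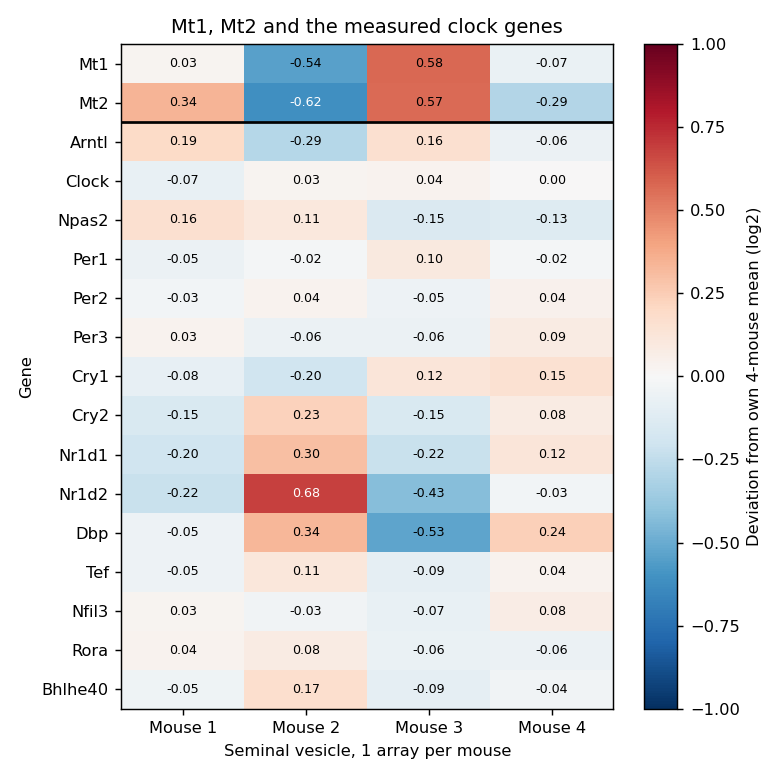
Deviation from the gene's own 4-mouse mean in log2 units (colour and printed value) in each mouse (columns) for Mt1 and Mt2 (top) and the 15 measured clock genes (below the line). Cry2, Nr1d1, Nr1d2, Dbp, Tef, Rora and Bhlhe40 peak in mouse 2 and are lowest in mouse 3, opposite to Mt1 and Mt2, and Arntl is lowest in mouse 2.

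Over the 12 pathway lists together, 153 genes other than the members were measured and 98 were above the range. The variance over the 4 arrays was tested for every probe set against limma's prior variance (upper-tail F test, Benjamini-Hochberg adjusted p under 0.05), which called 35 of 12422 probe sets, or 0.282%, and 16 of 8251 genes by their brightest probe set, or 0.194%. Of the 153 pathway genes limma called 0, with 17, or 11.1%, at an unadjusted p under 0.05, against 676, or 5.44%, of all probe sets and 4.93% of all genes by their brightest probe set. The lowest adjusted p among them was 0.0589 (limma). Without mouse 1 the count was 1, Ddit4. The count over all probe sets was 23 without mouse 2 and 17 without mouse 4. The median SD was 0.12 for the pathway genes and 0.11 for all probe sets, and 1 of 153 genes had a ratio under 0.5 to the profile and 2 to its mirror, against 0.194% and 0.57% of all genes.

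Among all 12420 other probe sets, 23, or 0.185%, had a ratio under 0.5 to the Mt profile and 66, or 0.531%, to its mirror. These counts changed when a mouse was left out, but the ratio then covers 3 values, so they are not directly comparable. Without mice 1, 2, 3 and 4 in turn the first became 50, 228, 235 and 41, and the second 91, 202, 352 and 129. Single-gene probe sets with a mean above the limit made up 11 of the 23 and 45 of the 66. Among these, just inside the threshold on the side of the profile were Nnt at 0.482 and Polm at 0.491, and just outside were Qsox1 at 0.524 and Elovl6 at 0.527. On the mirrored side Lmo7 (0.494) and Arfgap3 (0.497) were just inside and Abhd11os (0.5005) and Perp (0.506) were just outside.

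The 2 probe sets nearest of all are annotated to several histone H3 genes, so no single gene can be named. The brighter of them had 6.90, 6.17, 7.28 and 6.47 in mice 1 to 4 (ratio 0.0763), and the dimmer, under the limit, had 4.56, 3.63, 4.80 and 4.01 (ratio 0.168). Another H3 probe set, under the limit, had 3.99, 3.21, 3.89 and 3.45 (ratio 0.455). A probe set annotated to several H2B genes, above the range, had 7.04, 6.60, 7.21 and 6.56 (ratio 0.478). With the linker histone gene H1f2 (ratio 0.447), histone probe sets recurred among the 23 with a ratio under 0.5. Whether this exceeds the share of histones on the array was not tested. The H3 and H2B probe sets were named after their values were seen. Since the H3 ones share annotated genes, they may not be independent readings. Among single-gene probe sets with a mean above the limit the nearest was Hsph1, whose values are given with the heat shock genes. Ces1d, a carboxylesterase gene, had 6.96, 6.49, 7.30 and 6.62 in mice 1 to 4 (ratio 0.314). Fkbp11, a prolyl isomerase of the endoplasmic reticulum, had 7.39, 6.79, 7.50 and 6.86 (ratio 0.396). Both peaked in mouse 3, with mouse 2 lowest.

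Among the rest of the 12, Ero1b, an oxidase that drives disulfide formation in the endoplasmic reticulum, had 9.51, 8.92, 9.57 and 8.93 (ratio 0.452), and Reep6, a membrane-shaping protein, had 6.29, 5.63, 6.26 and 5.74 (ratio 0.462). Qsox1, a secreted sulfhydryl oxidase, had 10.47, 9.84, 10.60 and 9.66 (ratio 0.524). These 3 genes set mouse 1 nearly level with mouse 3, as Mt2 did more than Mt1. Fkbp11, Bop1 and Polm did so too, so this did not set the 3 apart.

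The other genes of the 12 have varied roles, and H1f2 adds a histone gene to the histone probe sets given above. Ubl3, a membrane-anchored ubiquitin-like protein, had 6.77, 6.47, 7.35 and 6.46, and the linker histone gene H1f2 had 8.15, 7.75, 8.43 and 7.69. Tsr1 (5.91, 5.43, 6.18 and 5.87) and Bop1 (6.67, 6.04, 6.68 and 6.21) act in ribosome assembly, and Polm, a DNA repair polymerase, had 7.32, 6.73, 7.30 and 6.86. Nnt, the mitochondrial transhydrogenase, had 6.05, 5.34, 6.36 and 5.21; the C57BL/6J strain is known to carry a deletion inside this gene. Of the 12 genes, 10 had their maximum in mouse 3 and 2 in mouse 1, and 8 had their minimum in mouse 2 and 4 in mouse 4.

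All 6 genes nearest to the mirror peaked in mouse 2 and were lowest in mouse 3. P2rx4, an ATP-gated ion channel, had 6.09, 6.81, 5.80 and 6.50 in mice 1 to 4, with a mirror ratio of 0.116. This was the lowest among the single-gene probe sets with a mean above the limit, so it was picked as an extreme. Pdcd4, an inhibitor of translation, had 6.74, 7.40, 6.38 and 6.99 (0.146), and Eid1, an inhibitor of the coactivator p300, had 6.34, 6.88, 5.96 and 6.65 (0.216).

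Tmem123, a membrane glycoprotein gene, had 6.74, 7.39, 6.54 and 7.09 (mirror ratio 0.259), and Jpt1 had 6.12, 6.86, 5.97 and 6.42 (0.279). The luminal keratin gene Krt19 had 8.02, 8.48, 7.58 and 8.25 (0.268).

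**Figure D5:**
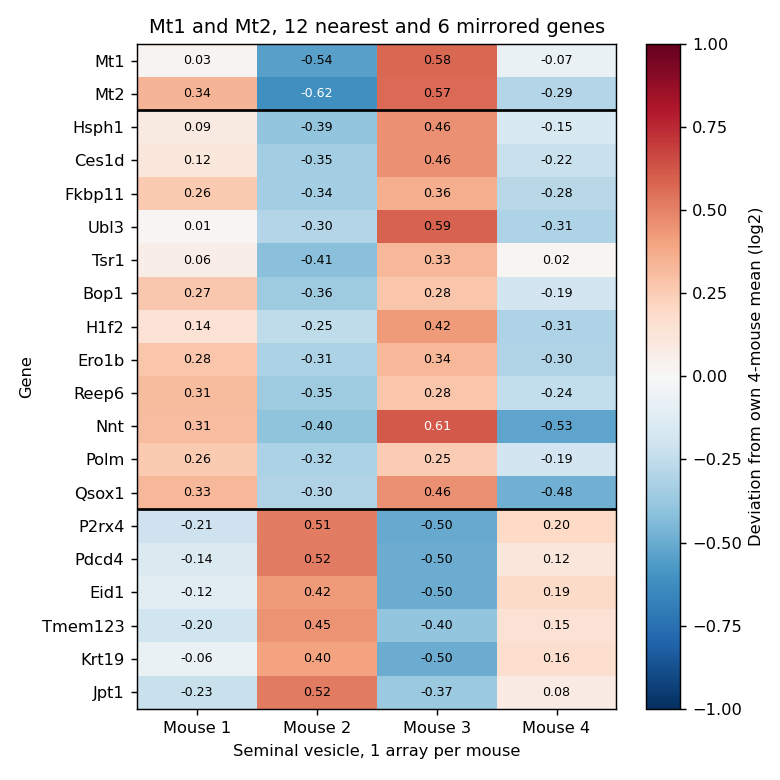
Deviation from the gene's own 4-mouse mean in log2 units (colour and printed value) in each mouse (columns) for Mt1 and Mt2 (top), the 12 genes nearest to their mean profile among single-gene probe sets above the mean limit (middle) and the 6 nearest to its mirror (bottom). The middle rows were chosen for the smallest distance to the profile over all 4 mice, and the bottom rows for the smallest distance to its mirror. Their likeness to either follows from this choice.

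Most of these genes rest on 1 probe set. Of the 12 near genes 9 had no other probe set, and the others did not all follow. The second Ces1d probe set had 5.43, 4.58, 5.24 and 4.48 (ratio 0.630), that of Bop1 had a ratio of 0.896, and the other 2 of Qsox1 had 1.06 and 1.24. One of the Qsox1 probe sets was above the range, at 7.64, 7.93, 7.65 and 7.66, with mouse 2 highest, so the Qsox1 pattern was not shared by all of its probe sets. The dimmer Krt19 probe set had a mirror ratio of 0.767. RefSeq promoter windows were found for 8 of the 12 near genes, of which 3 (Tsr1, H1f2 and Ero1b) held a metal response element core, and 28.2% of all genes with a window did.

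Of 110 genes measured in the cell type lists, 0 had a ratio under 0.5 to the profile and 3 had one to its mirror, against 0.194% and 0.57% of all genes. The mean deviation of the 10 luminal epithelium genes above the range was -0.01, 0.13, -0.10 and -0.01 in mice 1 to 4, with Krt8 at 8.50 ± 0.09 and Krt18 at 8.17 ± 0.19 (SD, n = 4). Of 5 measured erythrocyte genes 2 were above the range: Hba-a1, an alpha globin gene, had 7.88, 8.51, 7.71 and 8.39, a mirror ratio of 0.312, whereas the haem synthesis gene Alas2 had 5.73, 5.51, 5.22 and 5.57. The 3 genes with a mirror ratio under 0.5 were Krt19, Hba-a1 and the beta globin gene Hbb-b2 (0.466), which was under the limit. The part of blood or of the share of epithelium in the Mt1 and Mt2 values was not tested. In whole tissue, fewer cells of a type and less RNA per cell cannot be told apart.

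Stromal and immune lists had other orders. The mean deviation of the 12 smooth muscle genes was 0.32, -0.16, -0.04 and -0.12 in mice 1 to 4, with Acta2 at 8.81 ± 0.25 and Myh11 at 9.60 ± 0.20. For 10 macrophage and dendritic genes it was -0.05, 0.08, 0.25 and -0.28, with Csf1r at 5.39 ± 0.12 and C1qa at 6.68 ± 0.22, so it was highest in mouse 3 but not lowest in mouse 2. For 8 B and plasma cell genes it was -0.06, 0.27, 0.19 and -0.41. In that list limma's variance test called 3 of 10 measured genes (Ighm, Igha and Jchain), against 0.194% of all genes. All 3 had a mean above the limit. With only such probe sets tested, limma called 1 in the whole series, so at most 1 of these 3 calls remained. For 9 fibroblast and matrix genes the mean deviation was 0.09, -0.05, -0.06 and 0.02, with Col1a1 at 6.93 ± 0.14 and Col1a2 at 7.35 ± 0.12 (SD, n = 4).

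Of 8 measured basal epithelium genes 4 were above the range, with Krt17 at 6.32 ± 0.09 and Trp63 at 5.04 ± 0.04. For endothelium it was 4 of 9 (Pecam1 at 7.22 ± 0.19 and Vwf at 5.63 ± 0.11). For adipocytes it was 4 of 10 (Lep at 7.21 ± 0.10 and Retn at 5.57 ± 0.07). The basal keratin genes Krt5 (mean 4.80) and Krt14 (4.42) and the adipocyte genes Adipoq (3.07) and Fabp4 (3.91) were not above the range. In these 3 lists the mean deviations of the genes above the range stayed between -0.08 and 0.09. In the list of prostate and neighbouring ducts 3 of 9 genes were above the range, with a mean deviation of 0.09, -0.14, 0.04 and -0.0022 in mice 1 to 4 that was lowest in mouse 2, as for the members, and highest in mouse 1. Hoxb13 was at 6.16 ± 0.09, while the prostate secretory gene Pbsn, called by limma's variance test, had 6.57 in mouse 1 and 3.02, 3.18 and 3.47 in mice 2 to 4. Psca had 6.51, 6.26, 6.75 and 6.54, highest in mouse 3 and lowest in mouse 2 like the members. Pbsn and the Mt genes thus marked different mice.

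The RNA controls of the arrays were set beside the pattern. For beta-actin, the value of the 3' control probe set minus that of the 5' one was 1.08, 0.82, 1.02 and 0.98 in mice 1 to 4, lowest in mouse 2 as Mt1 and Mt2 were, and highest in mouse 1 rather than mouse 3. That of the Gapdh control was -0.12, -0.15, -0.15 and -0.13, with mice 2 and 3 level. The part of RNA quality in the Mt1 and Mt2 values was not tested.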

How the data were processed

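Seminal vesicle RNA of 4 mice was measured on 4 arrays. The authors deposited 1 log2 value for each probe set and array, and the submitters' processing notes name RMA, without a version or the arrays it ran on. The log2 scale was inferred from the range of the values, 1.47 to 13.2. Quantile normalization within RMA takes out shifts common to an array, and its background step compresses low signals. Of 12488 probe sets 66 controls were left out of tests. Gene names came from the platform annotation (10833 probe sets with a single gene, 396 with several and 1193 with none), and 10817 of the single-gene ones matched by gene ID to RefSeq for assembly GRCm38.p6. Where a gene had several probe sets, the one with the highest mean stood for it.

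The genes and lists were chosen with earlier results of these data known. The variance test of limma 3.58.1 in R 4.3.3 set each probe set's variance (3 residual degrees of freedom) against a robust prior with signal trend (8.06 degrees of freedom), adjusted by Benjamini-Hochberg over 12422 probe sets, and was tested on simulated data. The background limit was each array's median, since a list of other-organ genes was not used here. Named by rule were all metallothioneins, the first 3 genes above the range in each pathway list and the first 2 in each cell type list, every gene called in a list, and, among single-gene probe sets whose mean exceeded the mean limit, the 12 nearest to the profile and 6 nearest to its mirror. Neighbours, threshold cases, members of a small count and any other gene were named after their values were seen. Alternatives were other scalings, leaving out each mouse, other priors, filters, thresholds and profiles. Each array has an identifier of its own in the labels and was read as 1 mouse, which the labels do not state further, so p-values measure only the spread between these 4 samples, and that number limits every value. Figures used Python 3.11.15 with matplotlib 3.10.9.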

Additional observations from a re-analysis of the deposited data

Results flagged for a closer look

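Among 85 sets of 4 values examined, those of the genes named by rule and of the RNA controls, 2 had 1 mouse far from the other mice by Dixon's criterion, and chance gives about 1 in 20. Pbsn stood high in mouse 1, with a gap to the nearest mouse of 0.873 of the whole range. Trp63, a basal epithelium gene, was lowest in mouse 3, at 4.99 against 5.06, 5.05 and 5.07, with a gap of 0.837 of a range that is small. Neither Mt1 nor Mt2 was among them.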

How the results depend on the processing

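The spans and means of Mt1 and Mt2 moved by less than 1 SD with arrays shifted to the same median and with quantile normalization repeated. Leaving out each mouse, the Mt1 span ran from 0.57 to 1.12 and the Mt2 span from 0.86 to 1.18. The count of variable probe sets called by limma was 15 with a non-robust prior, 1 with only the probe sets above the mean limit, and 17 to 44 when each mouse was left out; of the pathway genes 0 to 1 were called when each mouse was left out and 0 in every other setting. The count near the profile was 7 at a ratio below 0.4 and 80 below 0.6, 110 with probe sets scaled to the profile's length, 15 above the mean limit and 41 to 235 when each mouse was left out. The mirrored count was 26, 151 and 169 under the first 3 of these and 91 to 352 when each mouse was left out. With the profile of Mt1 alone 4 of the 12 nearest genes were shared with the main list and with that of Mt2 alone 11; without mouse 2 it was 2 and without mouse 3 it was 1. Above the 75th percentile of all probe sets, chosen after seeing the data, 2801 probe sets remained, both members included. The alternatives at percentiles of other-organ genes were not run, as that list was not used here. No paired analysis was possible because there is 1 group. The cause of these shifts was not tested. Signal under the array median limits what can be said of Mt4, Slc30a1, Nr3c1, Dbp, Arntl, Rora, Bhlhe40, Keap1, Vegfa, Tnf, Commd1 and Hbb-b2. The same holds for Krt5, Krt14, Adipoq and Fabp4.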
